A study of Mus musculus with 12 samples.

Results

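The KChIP family and the Kv4 channel complex are described here by 9 genes: the KChIPs Kcnip1, Kcnip2, Kcnip3 and Kcnip4, the Kv4 pore subunits Kcnd1, Kcnd2 and Kcnd3, and the dipeptidyl peptidase-like partners Dpp6 and Dpp10. They were chosen by symbol, through the Ensembl identifiers of the count table, and all 9 were found among its 55385 genes. RNA was measured by sequencing of poly(A) libraries from the hippocampus of adult mice, with 3 libraries for each of 4 genotypes. WT mice served as controls, Kcnip3 KO mice lack functional Kcnip3, and 5xFAD mice carry transgenes, mutant human APP among them, under Thy1 sequences, which drive expression in neurons. Mice of the genotype Kcnip3 KO-5xFAD carry both changes and are called double mutants here. The WT and Kcnip3 KO groups have no transgene, and the WT and 5xFAD groups have intact Kcnip3. Whether the libraries of a group came from separate animals is not stated, so p-values measure only the spread between these libraries.

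Kv4 channels carry the fast, transient A-type potassium current of neuronal cell bodies and dendrites, which delays firing and damps action potentials that travel back into dendrites. Each channel is built from 4 pore subunits, with KChIPs bound to their cytoplasmic N termini and DPP proteins, catalytically inactive single-pass membrane proteins, at their sides. KChIPs are calcium-binding EF-hand proteins that raise the number of channels at the surface and slow their inactivation, while DPP proteins speed up their gating. KChIP3, the product of Kcnip3, is also known as DREAM, a calcium-regulated repressor that binds downstream regulatory elements in DNA. In hippocampal pyramidal neurons Kv4.2, the product of Kcnd2, is the main pore subunit of dendritic A-type channels.

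The 12 libraries held 7664407 to 11310714 counts. Some of them stood apart. Thy1, which is part of the transgenes, was at 2592 to 4236 CPM (read counts scaled to library size) in 5 libraries labelled as carrying them and at 747 to 887 CPM in 5 labelled as not. The library labelled WT 3 held 2277 CPM and the library labelled Kcnip3 KO-5xFAD 2 held 926 CPM, so their Thy1 level went against their labels. The library labelled Kcnip3 KO 3 kept more Kcnip3 than the other knockout libraries. Results are given for all 12 libraries and, where it changes them, without the pair with discordant Thy1 or without all 3. Hippocampal markers were present in every library, with 6 dentate granule neuron markers summing to 154 to 293 CPM and 8 pyramidal neuron markers of CA1 to CA3 to 972 to 1490 CPM. Markers of other brain regions (12 of cortex, striatum and thalamus) summed to 231 to 573 CPM.

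The KChIPs are related enough that their reads could be thought to be shared, so the last 90 coding bases before the stop codon are shown for each, from the longest coding transcript in GENCODE M21. This stretch encodes the end of the EF-hand core that all 4 share. Kcnip3 is the reference, in lower case. In the other 3 a capital marks a base that is the same as in Kcnip3 at that place.
Kcnip3: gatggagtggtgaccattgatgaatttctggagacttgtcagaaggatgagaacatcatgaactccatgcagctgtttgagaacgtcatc
Kcnip2: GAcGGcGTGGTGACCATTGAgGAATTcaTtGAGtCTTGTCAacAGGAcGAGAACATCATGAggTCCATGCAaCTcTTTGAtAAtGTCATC
Kcnip4: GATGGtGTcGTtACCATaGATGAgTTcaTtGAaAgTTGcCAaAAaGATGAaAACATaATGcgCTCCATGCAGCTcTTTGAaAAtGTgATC
Kcnip1: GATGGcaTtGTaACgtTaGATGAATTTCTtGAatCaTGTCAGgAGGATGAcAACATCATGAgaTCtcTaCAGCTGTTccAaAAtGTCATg
Kcnip2 matched Kcnip3 at 74 of the 90 bases, Kcnip4 at 69 and Kcnip1 at 67. Over the aligned coding sequence any pair of KChIPs was 71.1% to 73.0% identical, and the longest exact run shared by a pair was 17 to 19 bases. Kv4 pairs were 72.1% to 74.0% identical with shared runs of 23 to 29 bases, and Dpp6 and Dpp10 were 63.9% identical with a run of 20. Within coding sequence, reads longer than these runs therefore hold differences between members.

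Kcnip4 and Kcnd3 share exonic bases with genes on the opposite strand. These are 5730480H06Rik, with 168 bases and 788 counts over all libraries against 4490 for Kcnip4, Gm20700, with 99 bases and 11 counts, and Kcnd3os, with 165 bases and 195 counts against 5443 for Kcnd3. The strand setting of the counting is not given in the sources used here, so reads in those stretches cannot be assigned to a strand.

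Because KChIP3 binds DNA at a core of GTCA, the promoters of Kcnip3 itself and of Kcnip2, a gene whose level is followed below, are shown from the RefSeq table on GRCm38.p6. Each is the 250 bases before an annotated start, 5′ to 3′ on the gene's strand, with GTCA or its reverse complement TGAC in capitals. They lie on the minus strand at chr19:45816064-45816313 for Kcnip2 and at chr2:127522095-127522344 for Kcnip3.
Kcnip2: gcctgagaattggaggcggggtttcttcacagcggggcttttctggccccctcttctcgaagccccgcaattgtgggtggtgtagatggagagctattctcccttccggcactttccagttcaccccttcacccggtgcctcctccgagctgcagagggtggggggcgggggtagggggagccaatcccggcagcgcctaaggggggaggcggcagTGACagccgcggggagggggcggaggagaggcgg
Kcnip3: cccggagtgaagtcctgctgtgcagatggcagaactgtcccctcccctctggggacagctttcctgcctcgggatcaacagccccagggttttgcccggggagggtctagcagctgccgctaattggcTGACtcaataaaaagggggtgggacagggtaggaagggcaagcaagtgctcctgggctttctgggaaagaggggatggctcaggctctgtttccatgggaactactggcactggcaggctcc
Each of these stretches held 1 match. Kcnip3 has 3 annotated starts in the table and the one shown is the farthest upstream. Of the other two, 1 also held 1 match and 1 held 0. The table had 15 windows of 300 bases (250 before and 50 after a start) for 8 of the 9 members, and the count of matches per window ran from 0 to 3. Of all 32851 windows in the table, 85.2% held GTCA on either strand, with a median of 2 matches, so the short core is common. The longer TGACGTCA, the cyclic AMP response element, was in 1.79% of all windows and in 0 of the members' 15. A match is a description of these letters, not a binding site.

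Per length, Kcnip2 was the most abundant member, and in WT Kcnd1 was the least. In WT the level in TPM (a level per transcript length, taken back from the deposited log2 values) was 176 ± 8.26 for Kcnip2, 152 ± 5.39 for Kcnip3, 84.0 ± 6.51 for Dpp6 and 43.6 ± 1.77 for Kcnip4 (SD, n = 3). Next came Kcnd2 at 23.5 ± 1.05 TPM, Kcnd3 at 19.8 ± 4.24, Dpp10 at 17.9 ± 4.56, Kcnip1 at 12.3 ± 1.94 and Kcnd1 at 9.85 ± 0.438 (SD, n = 3). The WT libraries of Kcnd2 and Kcnd3 overlapped, as did those of Kcnd3 and Dpp10, and the other neighbours in this order did not. Over all 12 libraries Kcnip2 was above Kcnip3 in every library, and Dpp6 was above Kcnip4 and Kcnip4 above Kcnd2 in every library. Kcnip3 was above Dpp6 in 7 of 12 libraries, and these included all 6 with the intact gene. Kcnip1 was above Dpp10 in 6 of 12, so these low members had no fixed order. Dpp10 was above Kcnd1 in 8 of 12, and in 5xFAD they overlapped, at 7.20 ± 4.57 TPM for Dpp10 and 8.88 ± 1.09 for Kcnd1 (SD, n = 3).

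**Figure D1:**
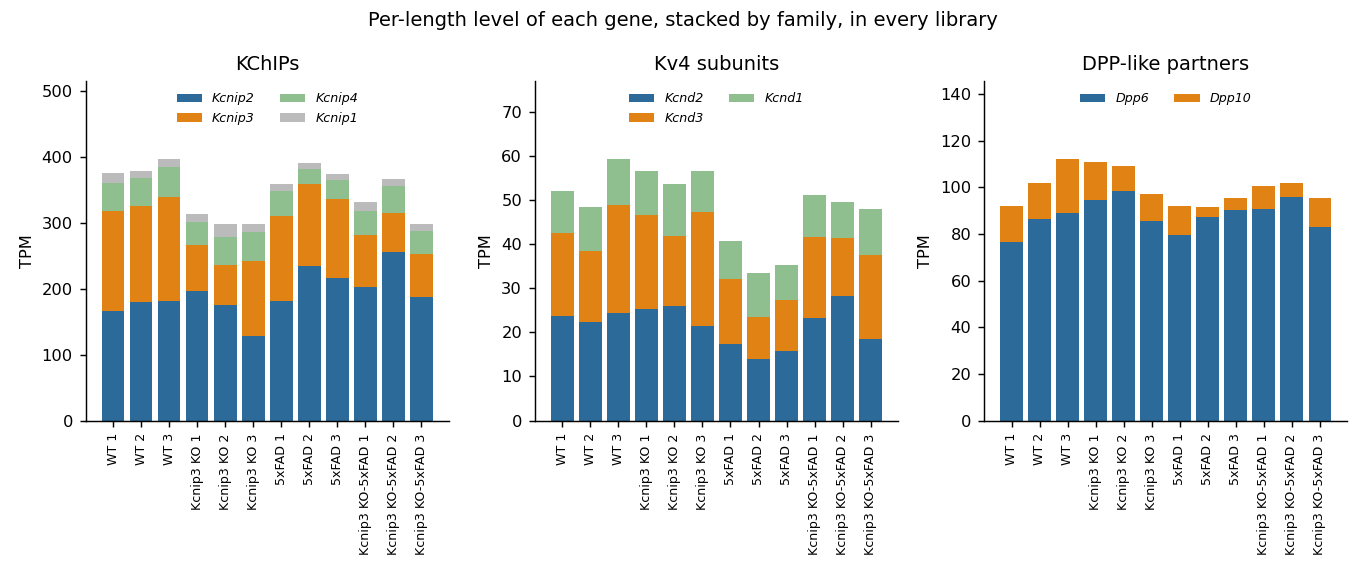
Stacked bars give the TPM of each gene in each of the 12 libraries, in 1 panel each for KChIPs, Kv4 subunits and DPP-like partners, each with its own axis from 0. Kcnip2 and Kcnip3 make up most of the KChIP bars, and the Kv4 bars of the 3 5xFAD libraries, at 33.5 to 40.6 TPM, are the lowest of the 12.

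Kcnip3, the knocked-out gene, was reduced in all knockout libraries but not absent. In WT it held 160, 158 and 162 CPM and in 5xFAD 139, 156 and 138 CPM. The Kcnip3 KO libraries held 71.4 and 63.4 CPM and, in the one labelled Kcnip3 KO 3, 125 CPM, and the double mutants 84.9, 68.7 and 70.1 CPM. Every knockout library was below every intact one, and Kcnip3 KO 3 was nearer to the intact libraries than to the other knockouts. As a percentage of the mean of the matching intact group, 39.6% to 78.3% of the signal remained without and 47.6% to 58.9% with the transgenes. The deleted part of the gene is not given in the sources used here, so these counts do not show which part of the transcript was left.

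With both backgrounds averaged, 6 libraries against 6, Kcnip3 fell by 0.92 ± 0.14 on the log2 scale (SE, adjusted p = 0.0214, edgeR quasi-likelihood test, Benjamini-Hochberg over 15905 genes). It was the only member of 9 called at an adjusted p under 0.05, where 0.088% of all tested genes were called, and the only one whose knockout and intact libraries did not overlap, which 0.302% of tested genes showed. In the separate comparisons of 3 against 3 the log2 difference was -0.88 ± 0.20 in Kcnip3 KO against WT (edgeR adjusted p = 0.449) and -0.95 ± 0.20 in Kcnip3 KO-5xFAD against 5xFAD (edgeR adjusted p = 0.245). Leaving out Kcnip3 KO 3 gave an averaged difference of -1.10 (edgeR adjusted p = 8.32e-06). That library was singled out by its high Kcnip3 level, so a larger fall without it follows from the choice. This p is therefore not separate support. Kcnip3 lost the call without the pair with discordant Thy1, at -0.89 (edgeR adjusted p = 0.214). It also lost the call in 9 of the 12 fits that left out 1 library, with edgeR adjusted p up to 0.121. Over the alternatives tried, the call held in 9 of 20, among them the fits without Kcnip3 KO 3. In the averaged comparison an unadjusted p under 0.05 was found for 3 of 9 members, Kcnip3, Kcnd2 and Kcnip1, beside 8.47% of all genes. Kcnd2 differed by 0.28 ± 0.10 and Kcnd3 by 0.26 ± 0.14 (edgeR adjusted p = 0.569 and 0.61), and their libraries overlapped.

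No other KChIP was called on loss of Kcnip3. Kcnip2, the most abundant of them, held 182, 201 and 194 CPM in WT and 209, 187 and 147 in Kcnip3 KO, and the groups overlapped. Its averaged log2 difference was -0.07 ± 0.12, that of Kcnip4 0.08 ± 0.10 and that of Kcnip1 0.27 ± 0.13 (edgeR adjusted p = 0.86, 0.795 and 0.587). Summed per length, Kcnip1, Kcnip2 and Kcnip4 came to 232 ± 7.83 TPM in WT against 222 ± 31.9 in Kcnip3 KO, and to 250.3 ± 17.8 in 5xFAD against 265 ± 38.0 in double mutants (SD, n = 3). The knockout minus intact difference of that sum was 0.00 on the log2 scale, with an SD between libraries of a genotype of 0.16. All 4 KChIPs together came to 384 ± 11.1 TPM in WT and 303 ± 8.95 in Kcnip3 KO. Kcnip3 made up 39.6 ± 0.929% of the KChIP signal in WT and 27.0 ± 9.57% in Kcnip3 KO (SD, n = 3). Kcnip2 made up 45.8 ± 1.46% and 54.8 ± 10.4% (SD, n = 3). By library, Kcnip3 KO held 22.2%, 20.7% and, in Kcnip3 KO 3, 38.0% for Kcnip3. For Kcnip2 it held 62.6%, 58.8% and, in Kcnip3 KO 3, 43.1%.

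In Kcnip3 KO against WT, 0 of 9 members were called by edgeR, where 0.0503% of all tested genes were called. At an unadjusted p under 0.05 it was 1 of 9 members, Kcnip3, beside 4.51% of all genes, and DESeq2 called 1 member, Kcnip3 (adjusted p = 0.0134), beside 0.141%. Without the filter on low counts edgeR called 2, Kcnip3 and Dpp10, beside 1.02%. The libraries did not overlap for 2 members, Kcnip3 and Dpp6, beside 9.46% of all genes. Dpp6, which drives Kv4 channels to the surface of dendrites, held 281, 326 and 318 CPM in WT and 339, 353 and 328 in Kcnip3 KO. The lowest knockout library was just above the highest WT library, and the log2 difference was 0.14 ± 0.11 (edgeR adjusted p = 0.999). The 3 Kv4 subunits differed by 0.04 to 0.10. The median over members was 0.04, against 0.00 over all tested genes.

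**Figure D2:**
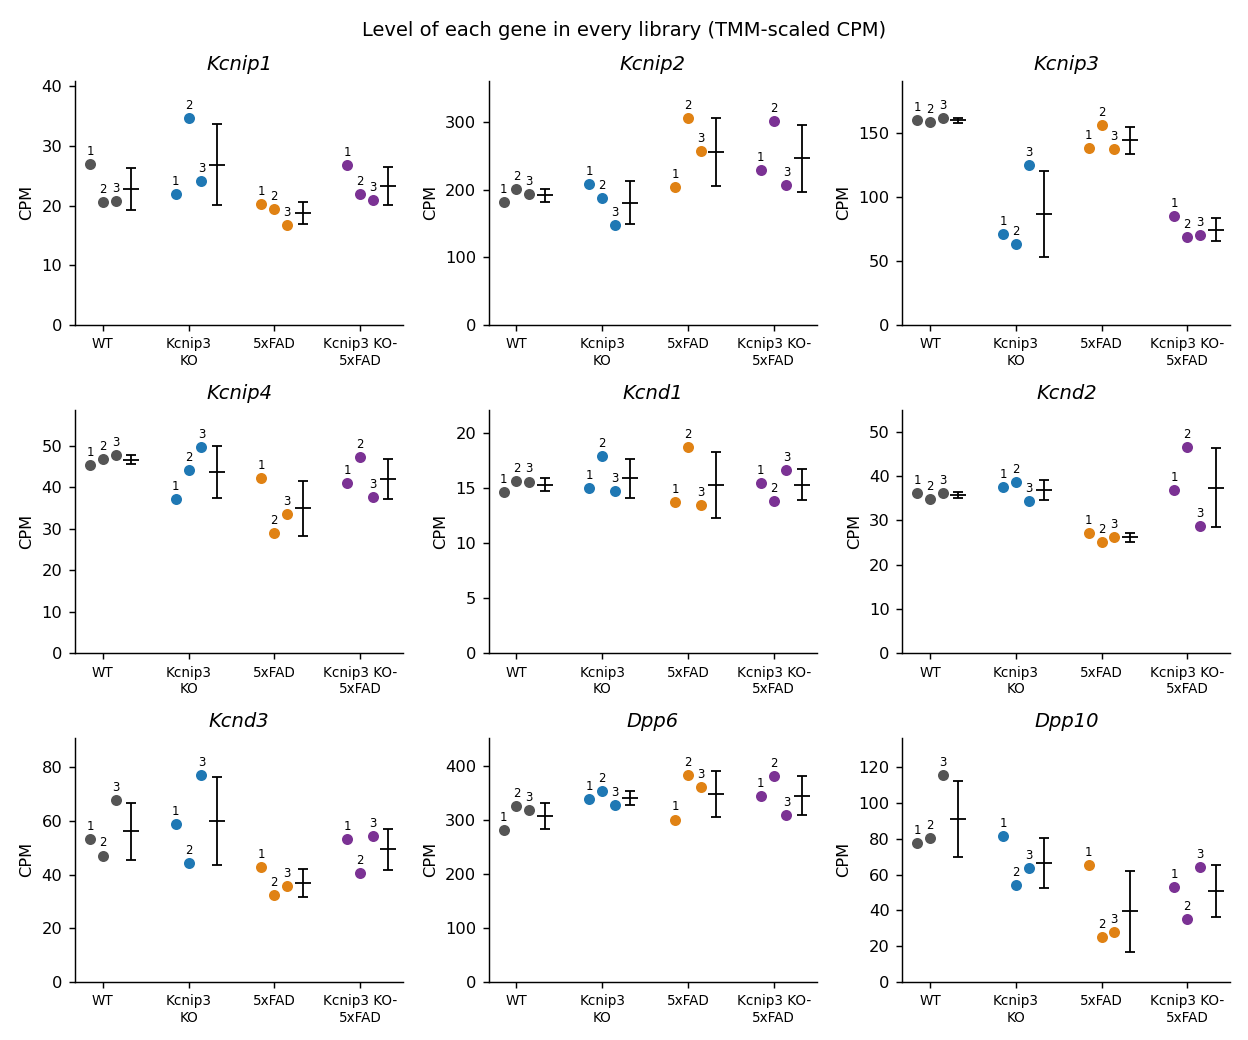
Points give the CPM of each of the 9 genes in each library, grouped by genotype, with the mean and SD of 3 libraries, on an axis from 0 for each gene. Kcnip3 is lower in the knockout genotypes, with the library labelled Kcnip3 KO 3 at 125 CPM, and the Kcnd2 points of 5xFAD lie at 25.2 to 27.2 CPM, below those of the other genotypes.

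Among the pore subunits, Kcnd2 and Kcnd3 were lower in 5xFAD than in WT in every library and Kcnd1 was not. Kcnd2, which encodes Kv4.2, held 36.2, 34.9 and 36.2 CPM in WT and 27.2, 25.2 and 26.2 in 5xFAD. The 5xFAD libraries were below all 9 other libraries, the lowest of which, Kcnip3 KO-5xFAD 3, held 28.7 CPM. The log2 difference was -0.45 ± 0.14 (edgeR adjusted p = 0.0802). Kcnd3, which encodes Kv4.3 and is known from interneurons and dentate granule neurons, held 53.4, 47.1 and 67.9 CPM in WT and 42.7, 32.2 and 35.7 in 5xFAD. The groups did not overlap, and the log2 difference was -0.61 ± 0.20 (edgeR adjusted p = 0.0896). Kcnd1, which encodes Kv4.1, held 14.6, 15.6 and 15.6 CPM in WT and 13.7, 18.7 and 13.4 in 5xFAD. Its groups overlapped, with a log2 difference of -0.01 ± 0.15.

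The DPP-like partners went different ways. Dpp10 held 77.6, 80.4 and 116 CPM in WT and 65.4, 24.8 and 28.1 in 5xFAD. All 5xFAD libraries were below all WT libraries, but 5xFAD 1 was nearer to WT than to 5xFAD 2 and 5xFAD 3. The log2 difference, at -1.21 ± 0.36, was the largest of the 9 members, and its edgeR adjusted p was 0.0835. Dpp6 held 301, 383 and 361 CPM in 5xFAD, which overlapped WT, with a log2 difference of 0.18 ± 0.11 (edgeR adjusted p = 0.325).

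Of the KChIPs, Kcnip4 was lower and Kcnip2 higher in 5xFAD, in every library. Kcnip4, whose best known isoform suppresses inactivation of Kv4 channels, held 45.5, 46.9 and 47.7 CPM in WT and 42.2, 29.1 and 33.6 in 5xFAD, a log2 difference of -0.42 ± 0.14 (edgeR adjusted p = 0.0953). Again 5xFAD 1 was the library nearest to WT. Kcnip2 held 205, 306 and 258 CPM in 5xFAD, above the 182 to 201 CPM of WT, a log2 difference of 0.42 ± 0.17 (edgeR adjusted p = 0.145). Here too 5xFAD 1 was the nearest to WT. Kcnip1, a KChIP of interneurons, held 26.9, 20.6 and 20.8 CPM in WT and 20.3, 19.4 and 16.8 in 5xFAD, with the groups apart by less than 1 CPM, and Kcnip3 differed by -0.15 ± 0.19.

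By the edgeR test 0 of 9 members were called in 5xFAD against WT, where 3.53% of all tested genes were called. An unadjusted p under 0.05 was found for 5 of 9 members (Dpp10, Kcnd2, Kcnd3, Kcnip4 and Kcnip2), beside 25.3% of all genes.
The libraries did not overlap for 7 of 9 members, 1 higher and 6 lower, beside 13.7% of all genes higher and 13.9% lower. DESeq2 called 3 members, Kcnd2, Kcnd3 and Dpp10, beside 10.0% of all genes, and limma on the deposited log2 TPM called 0, beside 1.48%. The edgeR test without the filter on low counts called 5, beside 6.7%. The median log2 difference of the members was -0.28, against 0.01 over all tested genes.

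**Figure D3:**
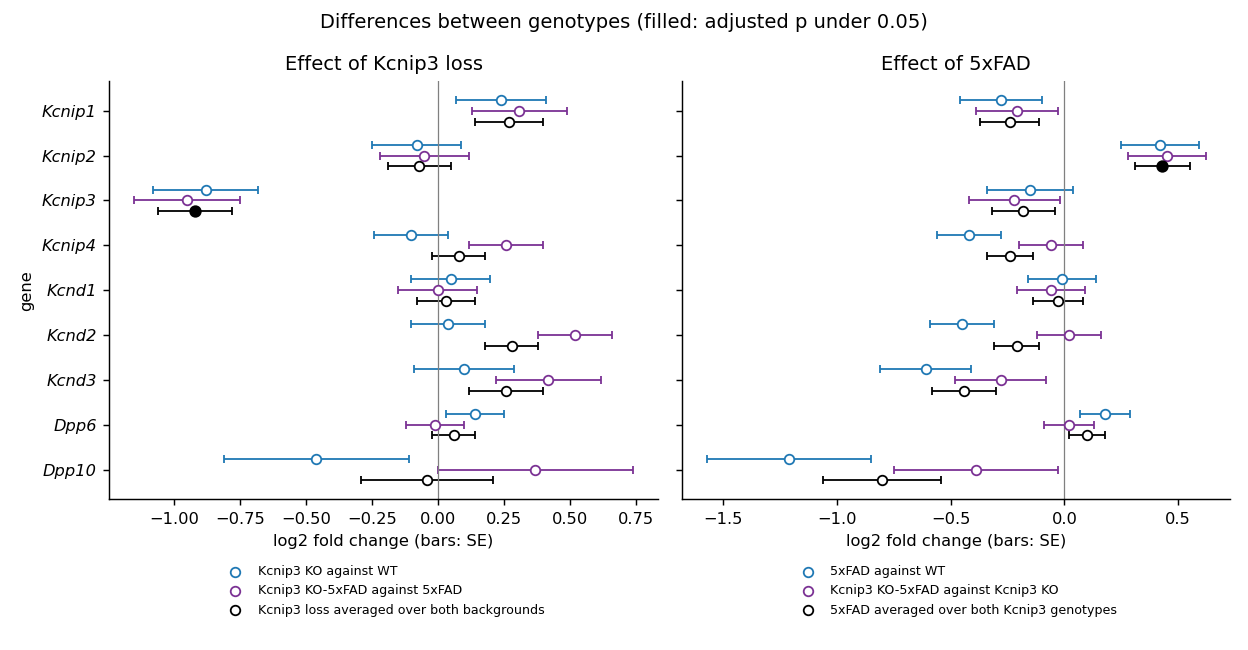
Points give the log2 fold change of each gene and bars its SE, from the edgeR fit, for the comparisons named in each panel. Filled points mark an adjusted p under 0.05, which Kcnip3 reached on averaged loss of Kcnip3 and Kcnip2 in averaged 5xFAD.

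The libraries also differed in 2 other measurements, which are given beside these differences. The first was base composition. Transcripts in the 25% of genes with the lowest GC content (up to 45.1%) were lower than those in the 25% with the highest (from 54.7%) in 5xFAD 2 and 5xFAD 3, by -0.43 and -0.29 on the log2 scale relative to the mean of all libraries. The value was -0.07 in 5xFAD 1 and -0.07 to 0.29 in the other 9 libraries. For long against short transcripts it was -0.46 in 5xFAD 2, -0.24 in 5xFAD 3 and -0.07 to 0.30 in all others. The median longest transcript over tested genes has 3273 bases and 49.9% GC. Of the 6 members whose 5xFAD libraries all lay below WT, 5 have a longest transcript under that GC content: Dpp10 with 15297 bases and 39.7%, Kcnip4 with 40.1%, Kcnd2 with 44.4%, Kcnip1 with 47.7% and Kcnd3 with 49.1%. The other one, Kcnip3, has 2732 bases and 54.7%. Kcnip4 is also under the median length, with 2394 bases, and Kcnd3, Kcnd2 and Kcnip1 have 7169, 5152 and 4095. The members that were not lower, Kcnip2, Kcnd1 and Dpp6, have 55.1%, 53.8% and 52.2%, with 3114, 5287 and 4720 bases. With a correction for transcript length and GC in each library, chosen after the data were seen, the difference of Dpp10 in 5xFAD against WT was -0.83, of Kcnd3 -0.46, of Kcnip4 -0.26, of Kcnd2 -0.25 and of Kcnip2 0.29 (edgeR adjusted p = 0.17, 0.228, 0.354, 0.417 and 0.471). The 5 directions held and each of these differences was smaller than without the correction. That was not so for every member, as Kcnip3 went from -0.15 to -0.30 (edgeR adjusted p = 0.444 with the correction).
Without the pair with discordant Thy1 the 5 differences were -1.01 for Dpp10, -0.45 for Kcnd3, -0.40 for Kcnip4, -0.44 for Kcnd2 and 0.42 for Kcnip2. The part that transcript length, GC content or RNA quality has in the differences was not tested.

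The other was the makeup of the sample by cell type. The 8 general neuron markers summed to 4660 to 4820 CPM in WT, 3800 to 4070 in 5xFAD, 4420 to 4820 in Kcnip3 KO and 4170 to 4320 in double mutants. Of these 8 markers 1, Snap25, was called in 5xFAD against WT, at -0.70 ± 0.11 (edgeR adjusted p = 0.0173). The gap rested on it: the other 7 summed to 3220 to 3370 CPM in WT, 2920 to 3250 in 5xFAD and 2980 to 3260 in double mutants, which overlapped. The median log2 difference of the 8 was -0.10. Microglial markers summed to 231 to 389 CPM in WT and 671 to 858 in 5xFAD, with 4 of 7 called higher. The 389 CPM was in WT 3, against 240 and 231 in WT 1 and WT 2. Double mutants held 699, 282 and 554 CPM, the lowest in Kcnip3 KO-5xFAD 2. WT 3 and Kcnip3 KO-5xFAD 2 are the pair with discordant Thy1. Astrocyte markers summed to 2910 to 3690 CPM in WT and 4970 to 5470 in 5xFAD. Oligodendrocyte markers summed to 3480 to 5790 CPM in WT and 5910 to 8220 in 5xFAD. In Kcnip3 KO they summed to 4580 to 8780 CPM and in double mutants to 5540 to 7580. Between WT and 5xFAD the astrocyte and oligodendrocyte sums stood apart, with 0 of 7 called in each list. Of the astrocyte markers, however, 4 were higher and 3 lower, with a median log2 difference of 0.26. All 7 oligodendrocyte markers were higher, with a median of 0.58. All 7 were also higher in Kcnip3 KO against WT, with a median of 0.51. In double mutants against Kcnip3 KO the median was 0.04. The part of these cell types in the members' differences was not tested. Interneuron markers summed to 1160 to 1320 CPM in WT and 1040 to 1400 in 5xFAD, with 0 of 10 called. In bulk tissue, fewer cells of a type and less RNA per cell cannot be told apart.

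**Figure D4:**
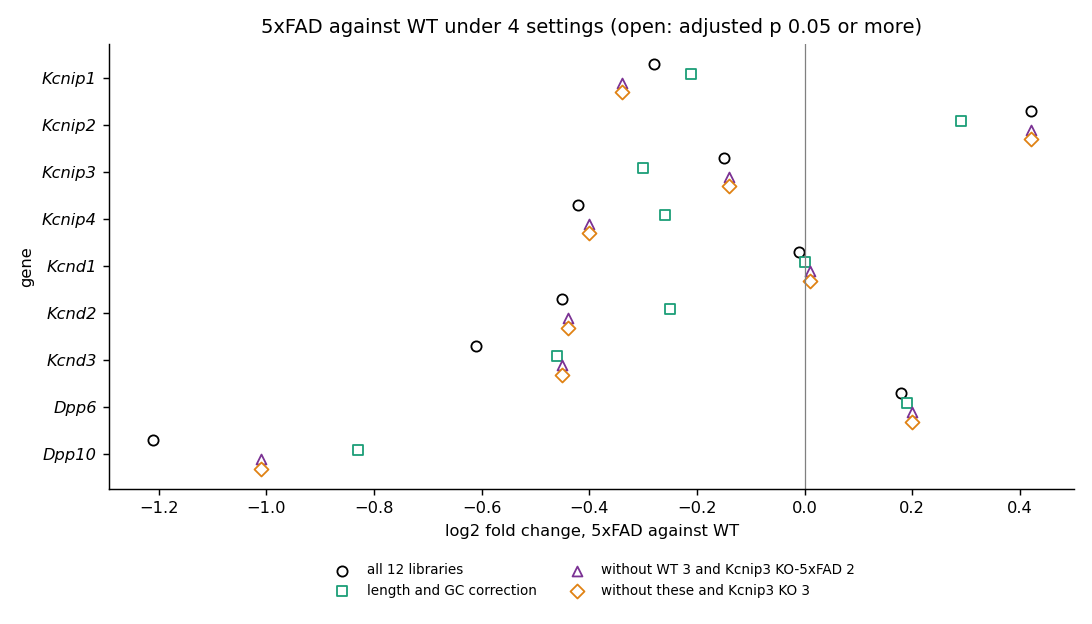
Symbols give the log2 fold change of each gene in 5xFAD against WT with all 12 libraries, with the length and GC correction, and without the libraries that stood apart. All symbols are open because no adjusted p was under 0.05, and Dpp10 runs from -1.21 to -0.83.

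Averaged over both Kcnip3 genotypes, 6 libraries against 6, Kcnip2 rose in 5xFAD by 0.43 ± 0.12 on the log2 scale (SE, edgeR adjusted p = 0.0422). It was the only member called, where 7.57% of all tested genes were called and 4.46% were called higher, so a call was not rare in this comparison. DESeq2 called 3 members, Kcnip2, Kcnd3 and Dpp10, beside 12.7% of all genes. With the transgenes but without Kcnip3, Kcnip2 held 230, 302 and 208 CPM. The 6 transgenic libraries ran from 205 to 306 CPM and the other 6 from 147 to 209, so the groups overlapped by a few CPM. For 0 of 9 members were the 6 against 6 libraries apart, beside 2.57% of all genes. Dpp10 differed by -0.80 ± 0.26 (edgeR adjusted p = 0.0804), Kcnd3 by -0.44 ± 0.14 (0.066), Kcnip4 by -0.24 ± 0.10 (0.142) and Kcnd2 by -0.21 ± 0.10 (0.182).

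The call of Kcnip2, made at an edgeR adjusted p of 0.0422, was near the cutoff for calls and did not hold without most single libraries. It was lost in 10 of 12 fits that left out 1 library, with log2 differences of 0.34 to 0.50 and adjusted p of 0.012 to 0.114, and held only without 5xFAD 1 or Kcnip3 KO-5xFAD 3. It was also lost with the length and GC correction, at 0.35 (edgeR adjusted p = 0.165), without the pair with discordant Thy1, at 0.35 (0.164), and without that pair and Kcnip3 KO 3, at 0.28 (0.225). The value was above 0 under each of these. The 3 highest libraries for Kcnip2 were 5xFAD 2 at 306 CPM, Kcnip3 KO-5xFAD 2 at 302 and 5xFAD 3 at 258. Of these, Kcnip3 KO-5xFAD 2 is a library whose Thy1 went against its label.

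The same 3 libraries, in the same order, were the highest for Hpca and Spink8, transcripts rich in pyramidal neurons of CA1. Hpca, which encodes hippocalcin, a neuronal calcium sensor related to the KChIPs, held 2454, 2131 and 1830 CPM in them and 678 to 1412 CPM in the other 9. Spink8 held 40.7, 35.0 and 31.6 CPM in them and 12.5 to 23.2 in the others. Fibcd1, another CA1 transcript, was highest in the same 3 libraries in a different order. Spink8 and Fibcd1 are on the list of 8 pyramidal markers, of which 3, with Pou3f1, had these libraries highest and 5 did not. Among the 5, Wfs1 held 163, 194 and 172 CPM in them and up to 214 elsewhere, and Mpped1 held 262, 227 and 224 CPM and up to 313 elsewhere. Hpca, Spink8 and Fibcd1 were picked after their values were seen. The whole list of 8 pyramidal markers summed to 972 to 1150 CPM in WT, 1100 to 1340 in 5xFAD, 982 to 1490 in Kcnip3 KO and 1050 to 1200 in double mutants, and the list of 6 dentate markers to 154 to 177, 158 to 228, 168 to 187 and 171 to 293 CPM. The 12 markers of cortex, striatum and thalamus were all lower in averaged 5xFAD, with a median log2 difference of -0.43. Of them 1 was called lower, where 7.57% of all genes were called. In 5xFAD against WT 5 were higher and 7 lower, with a median of -0.21. What part of hippocampus or of other regions each library sampled, and its part in the rise of Kcnip2, was not tested.

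**Figure D5:**
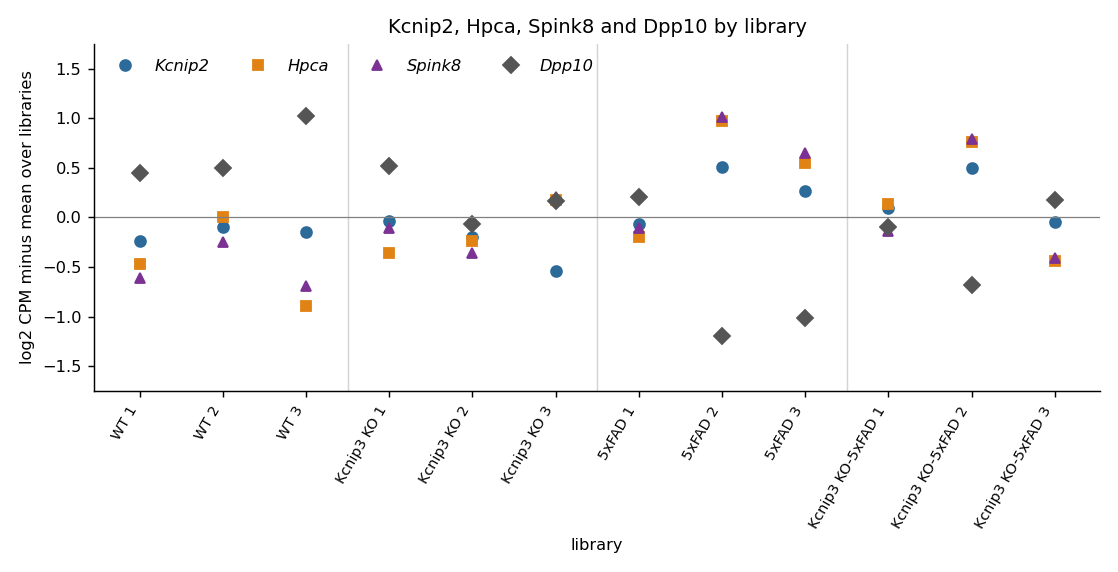
Points give log2 CPM minus the mean over the 12 libraries for Kcnip2, Hpca, Spink8 and Dpp10, in each library, with lines between genotypes. Kcnip2, Hpca and Spink8 are highest in 5xFAD 2, Kcnip3 KO-5xFAD 2 and 5xFAD 3, and Dpp10 is lowest in 5xFAD 2 and 5xFAD 3.

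Within 5xFAD, loss of Kcnip3 left 0 of 9 members called by edgeR, Kcnip3 included, where 0.0692% of all tested genes were called. At an unadjusted p under 0.05 it was 2 of 9, Kcnip3 and Kcnd2, beside 10.4% of all genes, and DESeq2 called 1, Kcnip3 (adjusted p = 0.00326), beside 0.15%. Without the filter edgeR also called Kcnip3 alone, beside 1.1%. Kcnd2 held 36.8, 46.7 and 28.7 CPM in double mutants against 27.2, 25.2 and 26.2 in 5xFAD. The groups did not overlap, and the double mutant libraries spread around the WT level of 35.8 ± 0.764 CPM (SD, n = 3). The log2 difference was 0.52 ± 0.14 (edgeR adjusted p = 0.411), and 0.32 without Kcnip3 KO-5xFAD 2 (0.512). Non-overlapping libraries were found for 3 members, Kcnd2 and Kcnip1 higher and Kcnip3 lower, beside 16.3% of all genes. Kcnd3 differed by 0.42 ± 0.20, Dpp10 by 0.37 ± 0.37 and Kcnip4 by 0.26 ± 0.14, with edgeR adjusted p of at least 0.483. That of Dpp10 ran from 0.13 without 5xFAD 2 to 0.93 without 5xFAD 1. The highest Kcnd2 library, Kcnip3 KO-5xFAD 2, is the one with low Thy1. This comparison shares the 5xFAD libraries with that of 5xFAD against WT, so a low value in them enters both with opposite sign.

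On the Kcnip3 KO background, adding the transgenes left 0 of 9 members and 0.0% of all genes called by edgeR. At an unadjusted p under 0.05 it was 1 of 9, Kcnip2, beside 10.4% of all genes. DESeq2 called 0 members and 133 genes (0.812%), and the edgeR test without the filter called 1, Kcnip2 (adjusted p = 0.0111), beside 2.27%. Kcnip2 differed by 0.45 ± 0.17 (edgeR adjusted p = 0.38), near its 0.42 ± 0.17 on the intact background. Kcnd2 differed by 0.02 ± 0.14, Kcnd3 by -0.28 ± 0.20, Dpp10 by -0.39 ± 0.36 and Kcnip4 by -0.06 ± 0.14. For 0 of 9 members were the libraries apart, beside 15.6% of all genes.

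The interaction tests whether the 5xFAD difference depended on Kcnip3. It called 0 of 9 members, and 0.0% of all genes, by edgeR. At an unadjusted p under 0.05 it was 1 of 9, Kcnd2, beside 5.26% of all genes, and DESeq2 called 0 members and 3 genes (0.00944%). For Kcnd2 the interaction was 0.47 ± 0.20, for Dpp10 0.82 ± 0.51, for Kcnip4 0.36 ± 0.20 and for Kcnd3 0.32 ± 0.28 (edgeR adjusted p = 0.853, 0.853, 0.853 and 0.857). Without Kcnip3 KO-5xFAD 2 that of Kcnd2 was 0.28, and without 5xFAD 1 that of Dpp10 was 1.39 (edgeR adjusted p = 0.83 and 0.349). For Kcnip2 it was 0.03 ± 0.24 (edgeR adjusted p = 0.99). So a different 5xFAD effect on Kcnd2 with and without Kcnip3 was not established, and intervals of this width do not show the effects to be alike. Without the filter on low counts 1 member was called, Dpp10, at 0.81 (edgeR adjusted p = 0.00228), beside 0.856% of all genes.

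Summed by role, the pore subunits were lowest in 5xFAD. Kcnd1, Kcnd2 and Kcnd3 together came to 53.2 ± 5.51 TPM in WT against 36.5 ± 3.70 in 5xFAD, and to 55.5 ± 1.65 in Kcnip3 KO against 49.6 ± 1.58 in double mutants (SD, n = 3). The 5xFAD libraries ran from 33.5 to 40.6 TPM and the other 9 from 48.0 to 59.2. The knockout minus intact difference of the Kv4 sum was 0.26 on the log2 scale, with an SD between libraries of a genotype of 0.11. Dpp6 and Dpp10 together came to 102 ± 10.1, 93.0 ± 2.16, 106 ± 7.49 and 99.3 ± 3.59 TPM in the same order, and 5xFAD overlapped WT and the double mutants. TPM gives each library the same total, and on this scale the median of all genes in 5xFAD against WT was -0.13 on the log2 scale, and the sums carry that shift.

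The balance of partners to pore subunits moved with these sums. Kcnip1, Kcnip2 and Kcnip4 together stood at 4.38 ± 0.395 TPM per TPM of Kv4 subunits in WT against 6.94 ± 1.15 in 5xFAD, and at 4.003 ± 0.625 in Kcnip3 KO against 5.34 ± 0.733 in double mutants (SD, n = 3). The lowest 5xFAD library, at 5.69, was above the highest WT library, at 4.81, and below the highest double mutant library, at 6.18. Dpp6 and Dpp10 stood at 1.92 ± 0.173, 2.57 ± 0.259, 1.91 ± 0.165 and 2.00 ± 0.0468 in that order. Within the Kv4 sum Kcnd1 made up 18.6% in WT and 24.6% in 5xFAD, and within the DPP sum Dpp10 made up 17.4% in WT and 7.77% in 5xFAD. These sums mix members chosen with earlier results known and are given with no test.

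The members differed in how much they varied between libraries of 1 genotype. Dpp10 varied most, with an SD of 0.49 on the log2 scale, more than 89.7% of tested genes, and Dpp6 least, with 0.13, more than 22.6%. The other 7 lay between 0.17 and 0.29, and the median of tested genes was 0.21. The lowest count of a member in a library was 108 reads for Kcnd1, for which counting alone gives a variation of 9.6%. The lowest count of Dpp10 was 175 reads, for which it gives 7.6%.

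Other genes of the channel complex and relatives of its members were taken from 4 lists, read beside the 7.57% of all genes called in averaged 5xFAD and the 3.53% called in 5xFAD against WT. Of 7 tested neuronal calcium sensor relatives of the KChIPs, 1 was called in any comparison. It was Vsnl1, which encodes visinin-like 1, at -0.35 ± 0.08 in averaged 5xFAD (edgeR adjusted p = 0.02). Of 7 peptidase relatives of the DPP proteins, 1 was called, Dpp7, a lysosomal peptidase, at 0.34 ± 0.09 in averaged 5xFAD (edgeR adjusted p = 0.0335). Of 16 tested further Kv4 subunits, scaffolds and kinases, 1 was called, Dlg1, which encodes the synaptic scaffold SAP97. It differed by -0.61 ± 0.16 in 5xFAD against WT and by -0.40 ± 0.11 in averaged 5xFAD (edgeR adjusted p = 0.0494 and 0.0411). Of 10 reported binding partners of KChIP3, 1 was called, Creb1, a transcription factor, at -0.64 ± 0.17 in 5xFAD against WT (edgeR adjusted p = 0.0497). In the other comparisons 0 genes of these lists were called by edgeR. The calls of Dlg1 and Creb1 were lost without the pair with discordant Thy1, where 0 genes of their lists were called. With the length and GC correction 0 genes of the lists of Dlg1, Creb1 and Dpp7 were called. The calcium sensor list kept 1 call in averaged 5xFAD under both settings, and the peptidase list kept 1 without the pair. Kcne2, a small accessory subunit that is abundant in choroid plexus, ran from 0.567 to 23.2 CPM, and the 7 choroid plexus markers from 241 to 10100 CPM in sum. The lowest 4 libraries for Kcne2 were WT 3, 5xFAD 2, Kcnip3 KO-5xFAD 1 and Kcnip3 KO-5xFAD 2.

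The genes most like Kcnip3 and Kcnip2 were found by the root mean square difference of log2 CPM, each gene centred on its mean over the 12 libraries. For Kcnip3, which itself had an SD of 0.533 over the libraries, they were Haus2 at 0.241, Ackr2 at 0.268 and Mfap1b at 0.284. Haus2 and Mfap1b are on chromosome 2, as is Kcnip3, and Ackr2 is on chromosome 9. For Kcnip2, with an SD of 0.291, they were Faah at 0.099, Prrt1 at 0.099 and Tmem28 at 0.11. These are the nearest of 15905 genes and are given as a description.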

How the data were processed

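The deposited table of raw read counts holds 55385 Ensembl genes in 12 libraries, and 55144 had a symbol in GENCODE M21. Per the submitters' processing notes, with no role or order, the build listed was mm10 and the tools were featureCounts, HISAT2 2.1.0, FastQC 0.11.9, edgeR 3.38.4 and R 4.2.1. Strand setting, annotation release and the lengths used for TPM were not given in the sources used here. A deposited table of log2 TPM (16120 genes) gave per-length levels.

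The members and all gene lists were chosen with earlier results of these data known. All 12 libraries were fitted in edgeR 4.0.16 (R 4.3.3; TMM, filterByExpr, 1 coefficient per genotype, robust quasi-likelihood test), with Benjamini-Hochberg adjustment over 15905 tested genes and calls at an adjusted p under 0.05. The averaged comparisons set 6 libraries against 6. The common biological coefficient of variation was 0.144. Levels are TMM-scaled CPM. Alternatives were DESeq2 size factors, no filter, DESeq2 1.42.0, limma 3.58.1 on log2 TPM, only the groups compared, a replicate block, leaving out libraries, and, added after seeing the data, a length and GC correction. Genes named outside the members were those of 4 fixed lists called in any comparison and the 3 nearest in pattern to a called member. Thy1, Hpca, Spink8, Fibcd1, Pou3f1, Wfs1, Mpped1, Kcne2 and Snap25 were named after their values were seen. A planned permutation test of family sums is not given, since it would be a p for a score over the members. The fit was tested on simulated data. Counts without molecular identifiers are not independent molecules, so counting variation covers counting error only.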

Additional observations from a re-analysis of the deposited data

How the results depend on the processing

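Counts of called genes and members depended on the setting, in the order 5xFAD against WT, Kcnip3 KO against WT, double mutant against 5xFAD, double mutant against Kcnip3 KO, averaged loss of Kcnip3, averaged 5xFAD, and interaction. With all libraries the edgeR test called 562, 8, 11, 0, 14, 1204 and 0 genes, with 0, 0, 0, 0, 1, 1 and 0 members. Without the filter, which roughly doubles the genes tested, it called 2131, 324, 351, 721, 296, 2470 and 272, with 5, 2, 1, 1, 1, 3 and 1 members. DESeq2 called 1406, 29, 29, 133, 27, 1862 and 3, with 3, 1, 1, 0, 1, 3 and 0 members. Without the pair with discordant Thy1 it was 209, 7, 6, 209, 13, 517 and 1 genes and 0 members in each, and without Kcnip3 KO 3 as well 216, 7, 11, 160, 12, 455 and 0, with 0, 1, 1, 0, 1, 0 and 0 members. The length and GC correction left 96 genes in 5xFAD against WT and 700 in averaged 5xFAD, with 0 members in both, and limma on log2 TPM called 238 genes in 5xFAD against WT. Fits of only the groups compared called 15 genes in Kcnip3 KO against WT, and 1 member, Kcnip3, in double mutant against 5xFAD. The cause was not tested beyond the number of genes or libraries. Of genes called, 54.1% were higher in 5xFAD against WT, but 33.6% with limma on log2 TPM, 68.8% with the length and GC correction and 93.8% without the pair. In averaged 5xFAD it was 59.0%, 35.4%, 60.7% and 89.9%.

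Leaving out 1 library at a time gave 1 to 2117 called genes and 0 to 3 members in 5xFAD against WT, 7 to 13 and 0 to 1 in Kcnip3 KO against WT, 6 to 12 and 0 to 1 in double mutant against 5xFAD, and 0 to 193 and 0 in double mutant against Kcnip3 KO. It gave 12 to 18 and 0 to 1 in averaged loss of Kcnip3, 387 to 2665 and 0 to 4 in averaged 5xFAD, and 0 to 4 and 0 in the interaction. Without 5xFAD 1 the 2117 genes in 5xFAD against WT included 3 members, and without WT 1, 5xFAD 2 or 5xFAD 3 it was 1 gene.

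Same-numbered libraries were not more alike than differently numbered ones. Deviations from the group mean of same-numbered libraries correlated at -0.32 to 0.246 (median -0.0326, 18 pairs). For different numbers it was -0.376 to 0.294 (median 0.00654, 36 pairs), and 3 of 12 libraries correlated best with their own number. Such correlations cannot show that no pairing exists. With the replicate block 1234 genes and 2 members (Kcnd3 and Dpp10) were called in 5xFAD against WT, against 562 and 0 without it. In averaged 5xFAD it called 1796 genes and 3 members (Kcnip2, Kcnd3 and Dpp10), against 1204 and 1 without it. The block fit called 0 members in averaged loss of Kcnip3 and 1 gene in the interaction.

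Over all alternatives 91 of 1296 log2 differences of members changed sign, none of them called on either side. Of these, 5 had a size over 0.1 with all libraries, among them Kcnip3 in double mutant against Kcnip3 KO, from -0.22 to 0.14 without Kcnip3 KO 3. Depth limited Kcnd1 most, at 108 to 149 reads per library.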
